A study of Mus musculus with 13 samples.

Results

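The opioid system of the brain is a small family of signalling genes, and 7 of them are described here: the receptors Oprm1 (mu), Oprk1 (kappa), Oprd1 (delta) and Oprl1 (nociceptin), and the precursors Penk (proenkephalin), Pdyn (prodynorphin) and Pnoc (prepronociceptin). The members were chosen by gene name, as the rows of these genes in a table of 26264 genes, and all 7 were found and had counts in all 13 libraries. All 7 passed the filter on low values. The libraries are ribosomal-RNA-depleted total RNA from tissue punches labelled ventral tegmental area (VTA), the midbrain region that holds the dopamine neurons projecting to the striatum and cortex. All mice carried the strain label C57BlJ/6 and received a virus in the VTA at postnatal day 14, bearing either Setd7, a lysine methyltransferase able to act on histone H3, or green fluorescent protein (GFP), and were sampled as adults. The promoter and serotype of the virus, the cells it reached and the age at sampling are not given in the sources used here. The 4 groups were GFP virus without social defeat (GFP control, n = 3, 1 female), GFP virus with adult social defeat stress (GFP defeat, n = 4, 2 female), Setd7 virus without defeat (Setd7 control, n = 4, 2 female) and Setd7 virus with defeat (Setd7 defeat, n = 2, 1 female). No group went without a virus.

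Opioid peptides are cut from larger precursors at pairs of basic residues and act on receptors that couple to inhibitory G proteins, which lower cyclic AMP, open inwardly rectifying potassium channels and close calcium channels. In the VTA, mu receptors are known mainly from GABA neurons, whose inhibition releases dopamine neurons from restraint, whereas kappa receptors sit on dopamine neurons themselves and dampen dopamine release. Dynorphin acting on kappa receptors is known for its role in aversion after stress. Nociceptin binds its own receptor, is not blocked by classical opioid antagonists and also inhibits dopamine neurons.

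The precursors differ in what they encode, and the codons of the peptide cores are shown because they separate the nociceptin pair, on which the results turn, from the rest of the family. In GENCODE M21 transcripts the codons for Tyr-Gly-Gly-Phe, the core shared by the enkephalins and dynorphins, occurred in frame 7 times in Penk and 3 times in Pdyn, each time after a pair of basic codons. The single corresponding site in Pnoc opens with a Phe codon, giving Phe-Gly-Gly-Phe. The runs below read 5′ to 3′, with the 5 codons that open each peptide in capitals and the codons on either side in lower case. They are the first and the only Leu-ending copy in Penk, the first copy in Pdyn, and the copy in Pnoc.
Penk, codon 100: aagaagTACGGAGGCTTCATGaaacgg
Penk, codon 231: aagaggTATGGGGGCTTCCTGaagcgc
Pdyn, codon 166: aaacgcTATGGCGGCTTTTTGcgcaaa
Pnoc, codon 141: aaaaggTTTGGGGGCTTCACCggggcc

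The receptors are close relatives of one another, and Oprl1 is the most distant of the 4. Over aligned bases of the coding sequences, identity was 70.7% between Oprm1 and Oprk1, 71.0% between Oprm1 and Oprd1 and 68.8% between Oprk1 and Oprd1, against 67.0, 67.4 and 67.7% between Oprl1 and Oprm1, Oprk1 and Oprd1. The codons of the Asp-Arg-Tyr motif, through which this receptor class engages its G protein, stand in capitals in the following runs and show the stretch in all 4 receptors.
Oprm1, codon 164: atgagtgtaGACCGCTACattgccgtctgc
Oprk1, codon 155: atgagtgtgGACCGCTACattgctgtgtgc
Oprd1, codon 145: atgagcgtgGACCGCTACattgctgtctgc
Oprl1, codon 144: atgagtgtaGACCGTTATgtagctatctgc

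Values are normalized counts, that is, reads per gene divided by a library's size factor, and differences are log2 fold changes ± standard error (SE) fitted with limma on log2 of the normalized count plus 1, so that 1 unit is a doubling. The libraries held 26.55 to 50.84 Mreads (mega-reads) assigned to genes. Setd7 was 10888 to 14538 in the 7 GFP libraries and 28587 to 158681 in the 6 Setd7 libraries, and every Setd7 library was above every GFP library. All 18 dopamine neuron markers were detected in every library, but Th, the enzyme that makes the dopamine precursor, was 9760 to 19110.5 in 10 of them and 2508 to 3392 in the rest, which are replicate 1 of GFP defeat and replicates 2 and 3 of GFP control. These 3 libraries stand apart, and differences that move by over 1.5 times without them are given with and without them. The labels do not state that each library is a separate animal, so p-values measure the spread between these libraries. For Setd7 defeat replicate 1 the column of the table carries more digits than the title does, and whether the library pools animals is not settled.

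Per kilobase of exon, Penk was the most abundant transcript of the family, at 1349 ± 378 normalized counts per kilobase (SD, n = 13). Oprl1 followed at 882 ± 76.0 and was by this measure the most abundant receptor. Pnoc averaged 276 ± 36.3, Oprm1 176 ± 27.9, Oprk1 153 ± 51.3, Oprd1 98.6 ± 51.0 and Pdyn 60.7 ± 34.2 per kilobase. The gap between Oprl1 and Pnoc held in all 13 libraries, with ratios of 2.55 to 4.08. Penk exceeded Oprl1 in 12 of 13 libraries and Pnoc exceeded Oprm1 in 12 of 13. Oprm1 and Oprk1 were not separated beyond their spread, with Oprm1 higher in 8 of 13 libraries, and the neighbours Oprk1 and Oprd1 (10 of 13) and Oprd1 and Pdyn (11 of 13) also overlapped. Lengths come from the previous mouse build by gene name. With only the exons of GENCODE's basic transcripts, Oprk1 averaged 294 per kilobase and moved above Oprm1 (209) and Pnoc (276), so its place in this order depends on which exons are counted.

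**Figure D1:**
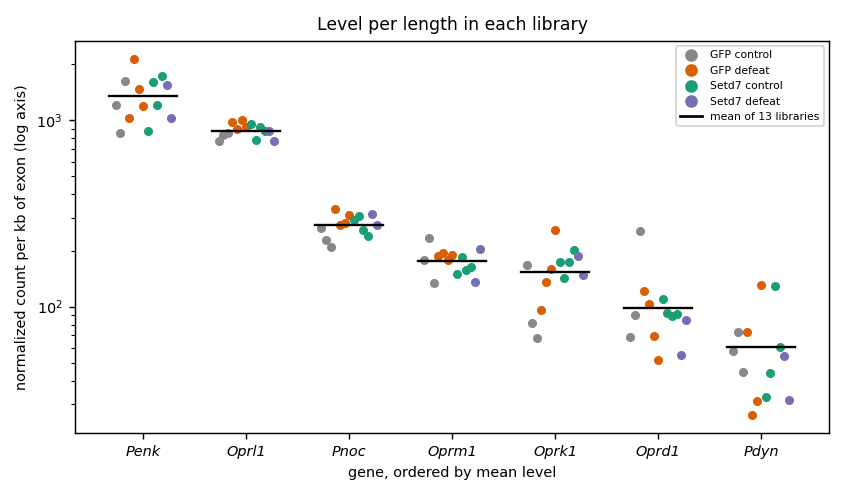
Normalized count per kilobase of exon (log axis) for each of the 7 genes, ordered by mean level, with 1 point per library coloured by group and a bar at the mean of 13 libraries. Penk and Oprl1 lie highest, with means of 1349 and 882, and Pdyn lowest at 60.7, with points from 26.3 to 130.2.

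The members also differed in how steady they were. Oprl1 varied least, with a coefficient of variation of 8.62% over the 13 libraries, and the SD of its log2 values lay at the 27.3rd percentile of all 17755 genes tested. Pnoc (13.1%) and Oprm1 (15.8%) were near the middle, at the 50.5th and 57.2nd percentiles. Penk (28.0%), Oprk1 (33.5%), Oprd1 (51.8%) and Pdyn (56.3%) varied more, at the 74.1st, 81.6th, 83.2nd and 88.9th percentiles. Reads behind single values ran from 73 for Pdyn in its lowest library to 4926 for Oprl1 in its highest, so counting error was at most 11.7% of a value for Pdyn and 2.12% for Oprl1. For all 7 genes the spread over libraries was larger than this counting error.

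The design crosses virus with stress, and 9 comparisons were made for each gene. After adjustment over all 17755 genes tested, limma called 0 of the 7 members in any of them, and edgeR and DESeq2 on recovered reads also called 0. The table as a whole gave few calls: limma called 0% of genes for Setd7 without defeat, defeat with GFP, Setd7 after defeat, defeat with Setd7, both together, the interaction and defeat averaged over virus, 0.00563% for Setd7 averaged over defeat and 0.062% for sex. Setd7 itself was 5.80-fold higher with Setd7 virus without defeat (adjusted p = 0.467 by limma, 1.2e-05 by DESeq2). After defeat it was 8.45-fold higher (adjusted p = 0.236 by limma, 1.1e-05 by DESeq2). A member without a call by limma is therefore not shown to be unchanged. At an unadjusted p under 0.05, the comparison Setd7 without defeat reached 1 of the 7 members (background 8.01% of all genes), defeat with GFP 2 (9.25%), Setd7 after defeat 1 (4.85%), defeat with Setd7 0 (2.59%), both together 1 (8.3%), the interaction 1 (4.96%), Setd7 averaged over defeat 0 (7.12%), defeat averaged over virus 1 (5.18%) and sex 1 (3.87%). In the same order, the median difference of the 7 members was 0.11, 0.22, −0.17, −0.05, 0.01, −0.28, −0.05, 0.06 and −0.03, beside medians over all genes of −0.01 to 0.01. The shares rest on 7 genes and the comparisons share libraries, so these counts describe the members and do not add up as separate results. The values below therefore show size and spread, and no member changed past the adjusted threshold.

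**Figure D2:**
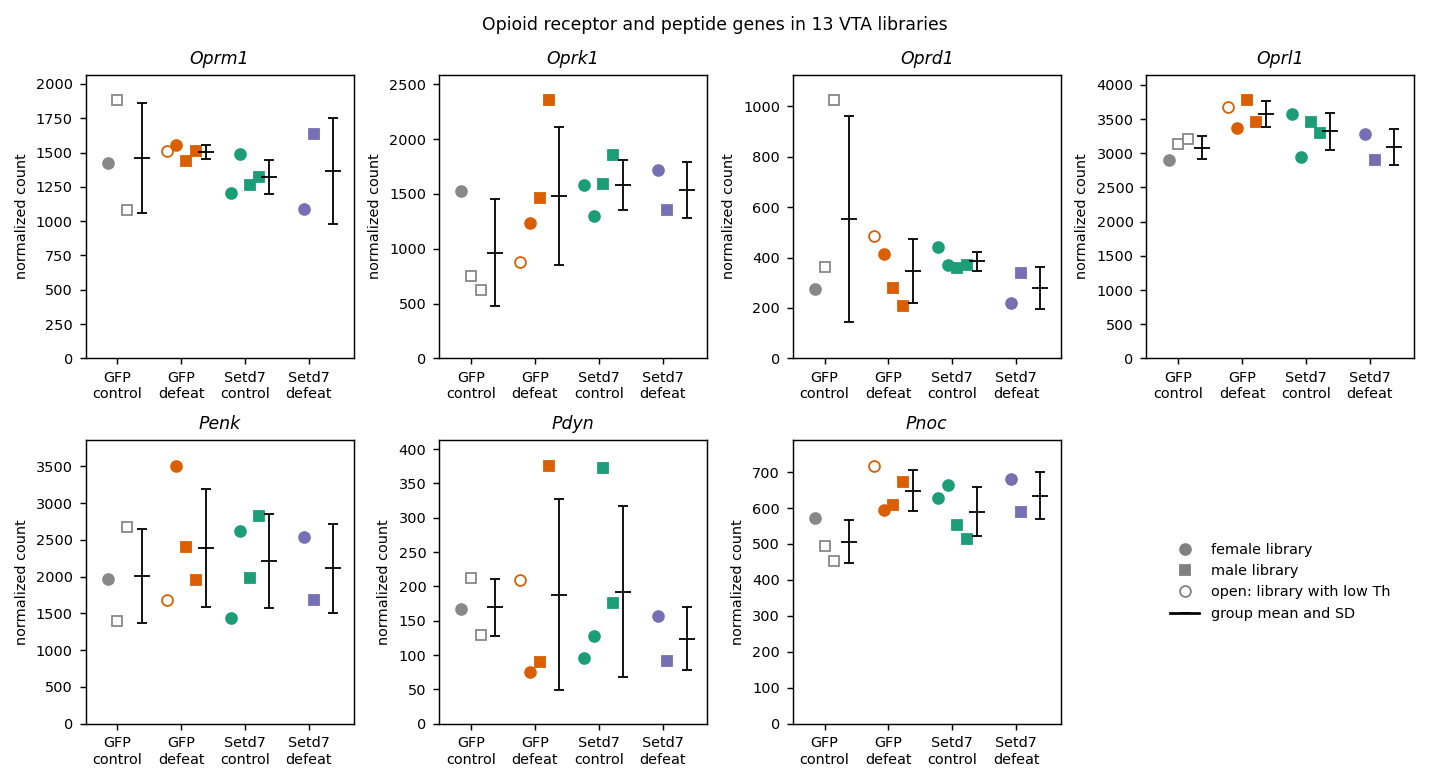
Normalized counts of the 7 genes in every library by group, with circles for female and squares for male libraries, open symbols for the 3 libraries with low Th, and bars for the group mean and SD. Pnoc and Oprl1 are higher in all 4 GFP defeat libraries than in the 3 GFP control libraries, and the open symbols are the lowest 3 for Oprk1.

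Pnoc, the precursor of nociceptin, read 571, 493 and 453 among the GFP controls, against 718, 595, 609.6 and 672 after defeat. Every defeat library lay above every control library, which fixes the order within each sex as well. Among females, the single control at 571 stood against 718 and 595 after defeat. Means were 506 ± 59.9 (SD, n = 3) and 649 ± 57.2 (SD, n = 4). The fitted difference was 0.33 ± 0.10, a 1.26-fold higher level with a 95% confidence interval of 1.08 to 1.46, with adjusted p = 0.397 by limma. The exact permutation p was 0.0286 (two-sided, unadjusted), the smallest that 35 reassignments allow.

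Oprl1, the receptor for nociceptin, read 2896, 3141 and 3216 among the GFP controls, against 3680.4, 3376, 3775 and 3465 after defeat, again without overlap. The means were 3085 ± 167 (SD, n = 3) and 3574 ± 185 (SD, n = 4). The fitted difference was 0.22 ± 0.08, or 1.16-fold (95% confidence interval 1.03 to 1.31), with adjusted p = 0.456 by limma and an exact permutation p of 0.0286. Ligand and receptor were thus the 2 of 7 members whose GFP groups did not overlap with defeat higher, where 4.26% of all genes did so. Across all 13 libraries the log2 values of Pnoc and Oprl1 were weakly related (Pearson r = 0.283, permutation p = 0.346, adjusted p = 0.712 over 70 relations; Spearman rho = 0.423, permutation p = 0.151, adjusted p = 0.826; r = 0.133 without the 2 libraries farthest from the median of Pnoc). Within the 10 libraries without low Th r was 0.054.

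The 3 libraries with low Th bear on both values, because 2 of them are GFP controls. Without the 3, GFP control is replicate 1 alone, which the fit takes to vary like the other groups. The difference was then 0.22 for Pnoc and 0.28 for Oprl1. Replicate 1 had the lowest Oprl1 of the 13 libraries, 2896, and the highest Pnoc of the GFP controls, 571. With all libraries and the dopamine marker score as a covariate, the difference was 0.32 for Pnoc (adjusted p = 0.708 by limma) and 0.26 for Oprl1 (adjusted p = 0.706 by limma). Leaving out single libraries gave 0.27 to 0.40 for Pnoc and 0.17 to 0.24 for Oprl1.

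With Setd7 virus the control and defeat groups overlapped for both genes. Pnoc read 627, 663, 553 and 514 among Setd7 controls and 680 and 589 after defeat, a defeat difference of 0.11 ± 0.11 (adjusted p = 0.9999 by limma). Oprl1 read 3573, 2946, 3461 and 3300.1 among Setd7 controls and 3277 and 2909 after defeat, a difference of −0.10 ± 0.09 (adjusted p = 0.9999 by limma). The test of whether the defeat difference depended on the virus gave −0.32 ± 0.12 for Oprl1 (adjusted p = 0.942 by limma) and −0.22 ± 0.15 for Pnoc (adjusted p = 0.942 by limma). Without the 3 low-Th libraries these were −0.38 for Oprl1 and −0.11 for Pnoc, and without Setd7 defeat replicate 2 the Oprl1 value was −0.20. Neither interaction passed after adjustment.

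Among defeated mice, both Setd7 libraries lay below all 4 GFP libraries for Oprl1 (3277 and 2909 against 3376 to 3775), which 6.98% of all genes also did in this direction. The difference was −0.21 ± 0.09 (adjusted p = 0.990 by limma), and the exact permutation p was 0.0667, the smallest that 15 reassignments allow. It rests on 2 libraries: the value was −0.33 without Setd7 defeat replicate 1 and −0.09 without Setd7 defeat replicate 2. Pnoc did not separate these groups (−0.03 ± 0.11, adjusted p = 0.991 by limma).

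Oprl1 moved closely with a ribosomal RNA measure. Among 12416 genes with a mean of at least 100 normalized counts, the 3 most like Oprl1 over the 13 libraries were Svop (r = 0.964), Urgcp (r = 0.943) and Rn45s (r = 0.943), given as a description because they were picked for their likeness. Rn45s is the ribosomal RNA precursor, which depletion kits remove in part. Its normalized counts were 825024, 1073220 and 1369200 for the GFP controls against 1683590, 1350410, 1575300 and 1367200 for the GFP libraries with defeat, so the groups overlapped only through GFP control replicate 3. The Setd7 controls were at 1498280, 777893, 1286000 and 1328130 and the Setd7 defeat libraries at 1241110 and 828312. The part of this measure in the Oprl1 differences was not tested.

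The genes most like Pnoc were Rpain (r = 0.897), Ywhaq (r = 0.889) and Sh3rf1 (r = 0.863). None of the 3 nearest genes was shared between Pnoc and Oprl1.

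Averaged over both viruses, Pnoc was higher with defeat by 0.22 ± 0.07 (adjusted p = 0.922 by limma; exact permutation p = 0.0305 within virus), and Oprl1 by 0.06 ± 0.06 (adjusted p = 0.952 by limma). Comparing Setd7 defeat with GFP control, which changes both factors, Pnoc was 0.30 ± 0.12 higher (adjusted p = 0.567 by limma) and its 2 groups did not overlap, with 680 and 589 against 453 to 571. The same was true of 11.3% of all genes in that direction, and the exact permutation p was 0.2 where 0.1 is the smallest possible. Without the 3 low-Th libraries the value was 0.22 (adjusted p = 0.822 by limma).

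Pnoc was also the only member with an unadjusted p under 0.05 between the sexes. It averaged 642 ± 55.1 in 6 female and 555 ± 74.9 in 7 male libraries, overlapping between 571 and 672. The fitted difference, female minus male, was 0.19 ± 0.07 (adjusted p = 0.999 by limma), and the exact permutation p within groups was 0.0185. Sex was a term in the reported fits, and the GFP control group has 1 female of 3.

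**Figure D3:**
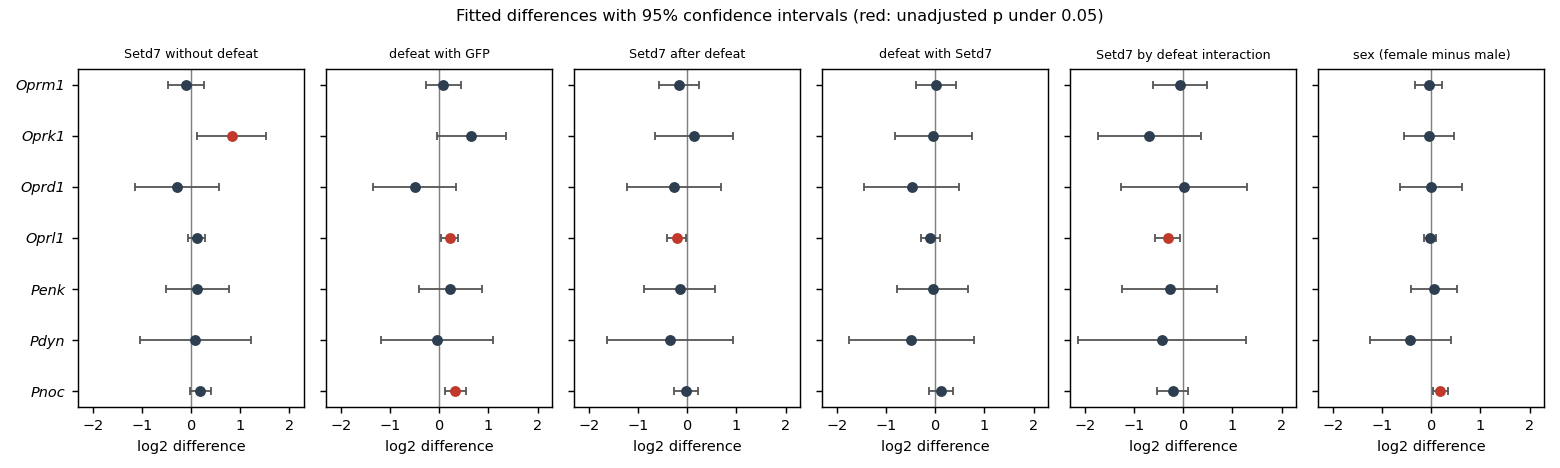
Fitted log2 differences with 95% confidence intervals for the 7 genes in 6 of the 9 comparisons, with red points for an unadjusted p under 0.05. The narrow intervals belong to Oprl1, Pnoc and Oprm1, and the widest to Pdyn, whose interval for defeat with Setd7 runs from −1.76 to 0.79.

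Oprk1, the kappa receptor, read 1526, 748 and 621 among the GFP controls, and 1585, 1302, 1590.1 and 1853 among the Setd7 controls. It was thus low in 2 of the 3 GFP controls, while the third was inside the Setd7 range. The difference for Setd7 without defeat was 0.82 ± 0.32, or 1.77-fold (95% confidence interval 1.09 to 2.87), with adjusted p = 0.589 by limma. The exact permutation p was 0.0571, where 0.0286 is the smallest possible.

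The same libraries were low in dopamine neuron markers. Defeat libraries read 882, 1234, 1465 and 2354 with GFP virus, 1720.1 and 1358 with Setd7 virus, and its 3 lowest values of the series, 621 to 882, were in the 3 libraries with low Th, against 1234 to 2354 in the other 10. The summed level of the 18 dopamine markers ran from 37897 to 105133 among GFP controls and 41484.5 to 168862 after defeat, and with Setd7 virus from 94875 to 178790 among controls and 106421 to 127087 after defeat. Without the 3 libraries the Setd7 difference of Oprk1 was −0.07 (adjusted p = 0.976 by limma, with 1 GFP control left), and with the dopamine marker score as a covariate it was 0.01 (adjusted p = 0.999 by limma). In bulk tissue, fewer cells of a type and less RNA per cell cannot be told apart.

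The same libraries bore on the effect of defeat. Defeat with GFP gave 0.65 ± 0.32 (adjusted p = 0.558 by limma), which was −0.06 without the 3 low-Th libraries and 0.05 with the dopamine covariate. GFP control replicate 1, whose Th is the lowest of the other 10, weighed the other way: without it the Setd7 difference was 1.39 (adjusted p = 0.101 by limma) and the defeat difference 1.21 (adjusted p = 0.230 by limma). Between the defeat groups Oprk1 differed by 0.13 ± 0.36 with Setd7 (adjusted p = 0.991 by limma), and by −0.05 without the 3 low-Th libraries.

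The libraries form separate clusters by dopamine score, 3 at 10.04 to 10.35 and 10 at 11.42 to 12.22, so no correlation between Oprk1 and this score over all 13 is given. Within the 10, Oprk1 and the dopamine score had r = 0.768 (permutation p = 0.0095, adjusted p = 0.166 over 70 relations) and Spearman rho = 0.515 (permutation p = 0.134, adjusted p = 0.718). Without the 2 libraries farthest from the median, GFP defeat replicate 4 and Setd7 control replicate 4 at the top of the score, r was 0.217, so the relation within the 10 rests on them. The 3 genes most like Oprk1 over 13 libraries were Tmem255a (r = 0.966), Syt17 (r = 0.964) and Ret (r = 0.961), values that span the same split into 3 and 10 libraries and are a description only. Ret, the receptor for glial-derived neurotrophic factor on dopamine neurons, is itself one of the 18 markers and read 5811 to 8549 in the 3 low-Th libraries.

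**Figure D4:**
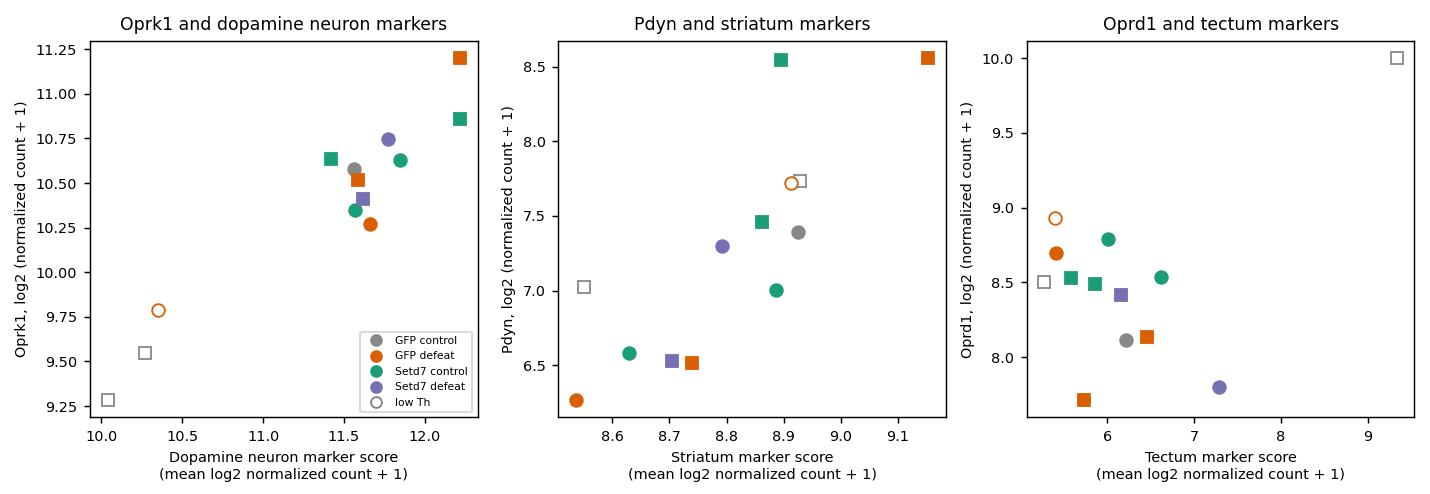
Log2 level of Oprk1, Pdyn and Oprd1 (vertical axes) against the mean log2 level of dopamine neuron, striatum and tectum markers (horizontal axes), 1 point per library, coloured by group, circles for female, squares for male and open for low Th. Oprk1 splits into 3 low and 10 higher libraries, Pdyn follows the striatum score across the range, and 1 GFP control library stands alone at the top of the tectum panel with 1024 normalized counts of Oprd1.

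Pdyn, the precursor of dynorphin and so the ligand source of Oprk1, was the lowest member per kilobase and the most variable. With GFP virus it read 167, 212 and 129 among controls and 209.9, 75.9, 90.4 and 376 after defeat. With Setd7 virus it read 94.996, 128, 372 and 175 among controls, then 156 and 91.5 after defeat. The high values, 376 and 372, were single libraries of different groups, and all 4 groups overlapped. No comparison reached an unadjusted p under 0.05 by limma: the defeat difference with GFP was −0.05 ± 0.52 (95% confidence interval −1.18 to 1.09) and the Setd7 difference without defeat 0.09 ± 0.52 (−1.05 to 1.22). Without the 3 low-Th libraries they were −0.79 and −0.38, and leaving out single libraries gave −0.49 to 0.35 and −0.30 to 0.29. These intervals include a halving and a doubling, so changes of that size were not detectable here.

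Pdyn went with the mean score of 8 markers of striatal neurons across libraries. Its log2 values had r = 0.815 with the striatum score over 13 libraries (permutation p = 0.00067, adjusted p = 0.0234 over 70 relations) and Spearman rho = 0.835 (permutation p = 0.00067, adjusted p = 0.0469). The relation held at r = 0.834 without the 2 libraries farthest from the median and at 0.853 within the 10 libraries without low Th (adjusted permutation p = 0.0399). The striatum score spans a narrow range, 8.54 to 9.15, and all 8 of its markers were detected in each library. Its markers did not move alike. Sp9 was lowest (20.5) in GFP control replicate 3, where Pdyn read 129, and highest (312) in GFP defeat replicate 4, where Pdyn read 376. Ppp1r1b was highest (1285) in GFP control replicate 3 and read 860 in GFP defeat replicate 4. Foxp1 was highest in GFP control replicate 2 (3841) and GFP defeat replicate 4 (3850), the libraries with the highest thalamus scores. Pdyn also had r = 0.707 with the score of hypothalamic and mammillary markers (permutation p = 0.00645, adjusted p = 0.0967; rho = 0.742, permutation p = 0.005, adjusted p = 0.0875; 0.555 without the 2 farthest). That score was highest, at 9.05, in Setd7 control replicate 3, where Pdyn read 372, and 8.18 in GFP defeat replicate 1, with 8 to 10 of its 10 markers above 0 in each library. With the thalamus score Pdyn had r = 0.600 over 13 libraries (permutation p = 0.0224, adjusted p = 0.224; rho = 0.753, permutation p = 0.00374, adjusted p = 0.0873; 0.651 without the 2 farthest) and 0.772 within the 10 (adjusted permutation p = 0.0574). With that score as a covariate the Pdyn difference for Setd7 without defeat was 0.77 and that for defeat with GFP 0.30 (adjusted p = 0.646 and adjusted p = 0.864 by limma). Beyond these covariate fits, the part of neighbouring tissue in the Pdyn values was not tested. The genes most like Pdyn were Zik1 (r = 0.932), Zcchc3 (r = 0.867) and Gldc (r = 0.860). With its receptor Oprk1, Pdyn had r = 0.200 over 13 libraries (permutation p = 0.516, adjusted p = 0.836). Within the 10 without low Th, r was 0.734 (permutation p = 0.0150, adjusted p = 0.210) and rho 0.818 (permutation p = 0.0058, adjusted p = 0.136). There r was 0.704 without the 2 libraries farthest from the median of Pdyn. Neither relation passed after adjustment.

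Penk, the precursor of the enkephalins that act on delta and mu receptors, read 1964, 1401 and 2674 among GFP controls and 1684, 3509, 2399 and 1952 after defeat. With Setd7 virus the controls were at 1431, 2614, 1977 and 2826 and the defeat libraries at 2539 and 1683. Every group spanned low and high values, and all groups overlapped. The defeat difference with GFP was 0.23 ± 0.30 (95% confidence interval −0.42 to 0.87, adjusted p = 0.863 by limma), and the Setd7 difference without defeat was 0.13 ± 0.30 (−0.52 to 0.77, adjusted p = 0.930 by limma). The defeat value was 0.00106 without GFP control replicate 2, 0.033 without GFP defeat replicate 2 and 0.47 without GFP control replicate 3, and without the 3 low-Th libraries the values were 0.52 and 0.23. Penk went with Otp, a homeodomain factor of hypothalamic neurons, more closely than with any other gene compared (r = 0.941, rho = 0.890). Otp read 507, 219 and 1014 among GFP controls and 419.9, 1751, 677 and 618 after defeat, so the library highest in Penk was highest in Otp and the lowest was lowest. Hspb8 (r = 0.834) and Mtfr1l (r = 0.815) followed. Exons of A830012C17Rik overlap those of Penk on the opposite strand in the previous build, and whether counting used strand is not given in the sources used here.

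Oprd1, the delta receptor, read 276, 361 and 1024 among GFP controls and 486, 415, 281 and 209 after defeat. The Setd7 virus controls read 442, 370.2, 359 and 369, the defeat libraries 222 and 340.0. A single library, GFP control replicate 3, was at 1024, and the other 12 lay between 209 and 486. The same library had a summed level of the 5 tectum markers of 3933, against 330 to 1541 in the other 12. It was also highest in cortex and hippocampus markers by sum (5368), though not by score. For pons and hindbrain markers it was highest by score (8.89), though not by sum. With the tectum score Oprd1 had r = 0.489 over 13 libraries (permutation p = 0.102, adjusted p = 0.528). Spearman rho was −0.148 (permutation p = 0.632, adjusted p = 0.961). Without the 2 libraries farthest from the median, GFP control replicate 3 and Setd7 defeat replicate 1, r was −0.312. Within the 10 libraries without low Th r was −0.446. Beyond these relations, the part of tectal tissue in the Oprd1 value was not tested. Defeat with GFP gave −0.50 ± 0.39 (adjusted p = 0.729 by limma) with GFP control replicate 3, 0.06 without it and 0.18 without the 3 low-Th libraries.

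With Setd7 virus, both defeat libraries were below all 4 controls for Oprd1, as were 4.96% of all genes. The difference was −0.48 ± 0.44 (adjusted p = 0.9999 by limma), and the exact permutation p was 0.0667, the smallest possible. Leaving out Setd7 defeat replicate 1 or 2 gave −0.12 or −0.84. The genes most like Oprd1 were Strip2 (r = 0.935), Fam163b (r = 0.933) and Ky (r = 0.919), and each was highest in GFP control replicate 3. Within the 10 libraries without low Th, Oprk1 and Oprd1 had r = −0.609 (permutation p = 0.0594, adjusted p = 0.378 over 70 relations; rho = −0.491, permutation p = 0.155, adjusted p = 0.725), and r was −0.069 without the 2 farthest from the median.

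Oprm1, the mu receptor and the main target of morphine, had a spread that differed between groups. It read 1427, 1880.4 and 1082 among GFP controls and 1508, 1557, 1437 and 1515 after defeat. Setd7 virus gave 1208, 1489.9, 1263 and 1319 among controls, then 1089 and 1636 after defeat. The GFP defeat libraries lay between 1437 and 1557, whereas the GFP controls held both the highest and the lowest value of the series. The highest, GFP control replicate 2, had the highest score of thalamic markers (11.13, against 7.85 to 10.26 in the other libraries). Over 13 libraries Oprm1 had r = 0.492 with that score (permutation p = 0.0926, adjusted p = 0.528), and −0.221 without the 2 libraries farthest from the median. With the tectum score r was −0.679 (permutation p = 0.00812, adjusted p = 0.0967), and −0.303 without the 2 farthest. Beyond these relations and the covariate fits below, the part of thalamic tissue in Oprm1 was not tested. No comparison of Oprm1 reached an unadjusted p under 0.05 by limma. The Setd7 difference averaged over defeat was −0.14 ± 0.13, with a 95% confidence interval of 0.751 to 1.098 as a fold. With the thalamus score as a covariate it was −0.01, and the Setd7 difference without defeat went from −0.11 to 0.05. The nearest genes were Trip12 (r = 0.947), Epb41l4b (r = 0.883) and Adgrl3 (r = 0.883). Exons of Oprm1 overlap Ipcef1 on the opposite strand in the previous build, which averaged 946 normalized counts.

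A list of 60 other genes of the pathway, from precursor processing to effectors, was tested in the same fits, and 0 of 60 passed in any comparison. The list was chosen with earlier results of these data known, so its counts and shares are a description only. At an unadjusted p under 0.05 by limma, the comparison Setd7 without defeat had 4 higher and 4 lower genes, defeat with GFP 7 and 2, Setd7 after defeat 1 and 3, defeat with Setd7 2 and 0, both together 6 and 1, the interaction 1 and 4, Setd7 averaged over defeat 3 and 3, defeat averaged over virus 5 and 0, and sex 1 and 2. In the same order, the higher and lower shares over all genes were 4.31 and 3.7%, 4.87 and 4.38%, 2.59 and 2.26%, 1.45 and 1.13%, 4.04 and 4.25%, 2.51 and 2.45%, 3.7 and 3.42%, 2.34 and 2.83%, and 2.06 and 1.81%. For the list, the shares were 11.7% higher and 3.33% lower for defeat with GFP and 10% and 1.67% for both together, and 6.67% in each direction for Setd7 without defeat. The list's median difference for defeat with GFP was 0.05, where that of all genes was −0.00.

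Among processing and breakdown genes, Pcsk1n, the inhibitor of the proprotein convertase that cuts opioid precursors, averaged 22346 ± 2429 (SD, n = 3) in GFP control and 25972 ± 1381 (SD, n = 4) in GFP defeat, a difference of 0.24 ± 0.08 (adjusted p = 0.449 by limma), and the interaction was −0.33 ± 0.12 (adjusted p = 0.942 by limma). For Pcsk1n, GFP control replicate 3, at 24912, lay inside the GFP defeat range of 24718 to 27900. Cpd, a carboxypeptidase that trims basic residues, differed by 0.20 ± 0.07 for defeat with GFP (adjusted p = 0.460 by limma). GFP control replicate 1, at 8870, lay inside the GFP defeat range of 8802 to 9779, and without the 3 low-Th libraries the Cpd difference was 0.08. Anpep, an aminopeptidase that cleaves enkephalins, averaged 96.8 ± 22.2 (SD, n = 4) in GFP defeat and read 299 and 162 in Setd7 defeat (1.21 ± 0.34, adjusted p = 0.990 by limma). The library at 299, Setd7 defeat replicate 1, also had a score of meningeal fibroblast markers of 9.89, against 6.67 to 7.79 in the others, and the part of meninges was not tested. Without this library the Anpep difference was 0.79. The Setd7 controls ran from 68.0 to 165, so Setd7 defeat replicate 2, at 162, lay inside their range. Scg5, the chaperone of a second convertase, differed between Setd7 defeat and GFP defeat by −0.16 ± 0.06 (adjusted p = 0.990 by limma). Ace, which also degrades enkephalins, was 0.35 ± 0.12 higher in Setd7 defeat than in GFP control (adjusted p = 0.533 by limma), and 0.20 higher without the 3 low-Th libraries. Pomc, the precursor of beta-endorphin, was low in every library, at 28.0 to 84.2 normalized counts.

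Among transducers and effectors, Gnai2, an inhibitory G protein alpha subunit, averaged 6227 ± 447 (SD, n = 3) in GFP control and 7286 ± 438 (SD, n = 4) in Setd7 control (0.23 ± 0.08, adjusted p = 0.563 by limma). GFP control replicate 1, at 6741, lay inside the Setd7 control range of 6705 to 7768, the low-Th controls were at 6016 and 5925, and without the 3 low-Th libraries the Gnai2 difference was 0.07. Adcy8, an adenylyl cyclase stimulated by calcium, differed by −0.29 ± 0.09 in the same comparison (adjusted p = 0.547 by limma). Rgs10, which speeds the turning off of inhibitory G proteins, was 0.40 ± 0.14 higher (adjusted p = 0.579 by limma), and 0.20 higher without the 3 low-Th libraries. It read 550, 849, 621 and 766 in the Setd7 controls, whose microglia scores were 10.06, 10.51, 9.98 and 11.31, against 9.97 to 10.34 in the GFP controls. All 5 microglia markers were above 0 in every library, with summed levels of 5734 to 7565 in the GFP controls and 5841 to 14739 in the Setd7 controls. Setd7 control replicate 4 also had an interferon response score of 10.95, where the other Setd7 controls had 7.28 to 7.51, and the part of microglia in Rgs10 was not tested. Adcy3, another adenylyl cyclase, followed the pattern of Oprl1: with GFP virus it read 2203, 2424 and 2438 among controls and 3002, 2650.0, 2765 and 2676 after defeat. With Setd7 virus Adcy3 read 2788, 2432, 2595 and 2505 among controls and 2383 and 2327 after defeat. Its difference was 0.24 ± 0.07 for defeat with GFP (adjusted p = 0.397 by limma) and −0.23 ± 0.08 for Setd7 after defeat (adjusted p = 0.990 by limma), and its interaction was −0.37 ± 0.11 (adjusted p = 0.942 by limma). Wls, a membrane carrier that binds the mu receptor, was 0.36 ± 0.14 higher with defeat in Setd7 mice (adjusted p = 0.9999 by limma). It read 2047 and 1536 after defeat against 1220 to 1472 in the Setd7 controls, and was 0.13 higher without Setd7 defeat replicate 1, the library with the high meningeal score. Between the sexes the genes with the smallest p-values were the arrestin Arrb2 (0.17 ± 0.07), the receptor kinase Grk3 (−0.17 ± 0.07) and Rgs14 (−0.76 ± 0.30), female minus male, with adjusted p = 0.999 by limma for each. Without the 3 low-Th libraries the Arrb2 difference was 0.08, and without GFP control replicate 1 it was 0.10.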

How the data were processed

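The 13 VTA punches gave total RNA (RNeasy Micro) for TruSeq RiboZero libraries, per the labels' protocols. Per the submitters' processing notes, Bowtie2, featureCounts, DESeq2 and GRCm39 were used; versions are not given in the sources used here. The authors deposited 1 table of signal, read here from its values as counts divided by 1 factor per library. Within each library all values were whole multiples of 1 step (100% within 0.01), and reads were recovered from it. Genes with at least 10 normalized counts in at least 2 libraries were tested (17755). limma 3.58.1 with a trend was fitted to log2(value + 1) with 4 group means and sex, two-sided, Benjamini-Hochberg threshold 0.05. The step was tested on simulated data with the same dispersion for every gene and no low-Th libraries. That test does not cover the wider spread of some members. edgeR 4.0.16 and DESeq2 1.42.0 on recovered reads, other pseudocounts (0.5, 10), filters, scalings, covariates and left-out libraries were alternatives. Single members were also tested by exact permutation, and correlations with 100000 permutations. Marker scores are means of log2 values over markers averaging at least 10. Genes were named by rule: all members, the 3 most alike per member, and pathway genes with the 3 smallest p under 0.05 per comparison, and Setd7; Pomc and Th were named after their values were seen. The members and lists were chosen with earlier results of these data known. Coding sequences and exon lengths come from GENCODE M21 (GRCm38), matched by name.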

Additional observations from a re-analysis of the deposited data

Results flagged for a closer look

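Oprd1 in Setd7 control replicate 1, at 442 normalized counts, stood apart from the other Setd7 control libraries, which lay between 359 and 370.2: the gap to its nearest neighbour was 0.867 of the group's range. It was the 1 value so marked among 14 groups of 4 libraries looked at, and chance marks about 1 in 20 groups.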

How the results depend on the processing

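Across 1666 recomputed values of members, 1589 stayed within 1 SE of the reported value, 76 moved by more, and 1 changed sign from a value with an unadjusted p under 0.05: Oprk1 for Setd7 without defeat was −0.069 without the 3 libraries with low Th. Other values also changed sign, and these are counted among the 1589 and the 76. The sign was kept in 18 of 26 alternatives for the Oprd1 interaction and in 20 of 27 for Pdyn, defeat with GFP. For Penk, Setd7 averaged over defeat, it was kept in 20 of 26. It was kept in 27 of 27 for Pnoc and for Oprl1, defeat with GFP. No alternative brought a member past the adjusted threshold. Over all genes DESeq2 called 35 for Setd7 without defeat, 85 for defeat with GFP, 6 for Setd7 after defeat, 7 for defeat with Setd7, 26 for both together, 1 for the interaction and 8 for defeat averaged over virus, where limma and edgeR called 0; the number was 7 against 1 and 1 for Setd7 averaged over defeat, and 17 against 11 (limma) and 10 (edgeR) for sex. For the named pathway genes, fits without the 3 low-Th libraries and without each library in turn were chosen after seeing the data; 0 of them changed a sign or brought a gene past the threshold. Under the scalings tried, the median of all genes was at most 0.04 from 0. No paired analysis was possible because the replicate numbers were given in accession order and pair nothing. With 2 Setd7 defeat libraries, leaving out either leaves a lone library, which is assumed to vary like the other groups. Fits limited to the groups compared were not run for the interaction and the averaged effects, which use all libraries. Depth is not the limit for Oprl1, with at least 2221 reads a library, whereas Pdyn had as few as 73.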
